A study of Mus musculus with 10 samples.

Results

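The transcriptional response of RAW264.7 cells to lipopolysaccharide (LPS) in the presence of solvent alone was measured by RNA sequencing. RAW264.7 is an established mouse macrophage line that was derived from a virus-induced tumor. Cells of the group DMSO received 0.5% DMSO without LPS, and cells of the group DMSO + LPS received 0.5% DMSO with LPS at 1 µg/mL. Cells were exposed to solvent for 1 h ahead of LPS and harvested for RNA at 12 h. Both groups therefore share the solvent, the cell line and the collection time, and differ in LPS. Each group had 2 libraries labeled as biological replicates, so the comparison used 4 of the 10 libraries of the series. The other 6 libraries came from cells that received a compound at 3.2, 10 or 32 µM with LPS, and they entered the filter on low counts, and so which genes were tested, and the estimate of the spread between replicates. Members of the comparison were all 43432 genes of the deposited count table, of which 14172 had enough counts to be tested.

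LPS is a glycolipid of the outer membrane of Gram-negative bacteria. It is handed by the lipid-binding protein CD14 to the receptor complex of TLR4 and MD-2, which signals through the adaptor MyD88 to NF-κB and AP-1 and through the adaptor TRIF to interferon regulatory factors. In macrophages this leads to the transcription of cytokine and chemokine genes, to the release of interferon β, and, through the interferon receptor, to a further wave of interferon-stimulated genes.

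The 4 libraries held between 48413747 and 58976377 counts. In the one with the smallest scaled total a gene at 5 CPM (counts relative to library totals that were scaled by edgeR's TMM method) held 235 counts, for which sampling of reads gives an error of 6.53%. Replicates differed along transcript length. The log2 difference between replicate 1 and replicate 2 had a standard deviation of 0.264 over 9562 genes in DMSO and of 0.102 in DMSO + LPS, and its rank correlation with exon length across these genes was −0.47 and 0.48, respectively. All 10 macrophage markers examined were expressed, 5 called higher and 2 lower, with summed levels of 12444 and 11400.5 CPM in DMSO and 11431 and 11503 CPM in DMSO + LPS. Of 44 markers of neutrophils, T cells, B cells, fibroblasts, epithelium and endothelium, 16 were tested, and 13 had 0 counts in all 4 libraries. Those with 0 counts were 2 of 8 neutrophil, 4 of 8 T cell, 1 of 7 B cell, 3 of 8 fibroblast, 2 of 7 epithelial and 1 of 6 endothelial markers. Of the 16 tested, 3 were called higher, 2 of them of neutrophils and 1 of T cells, and 3 lower, 1 each of B cells, fibroblasts and endothelium. The summed neutrophil markers were at 1.17 and 0.599 CPM in DMSO and 6.76 and 6.67 CPM in DMSO + LPS, and the summed B cell markers at 2.77 and 3.22 CPM in DMSO and 0.506 and 0.405 CPM in DMSO + LPS. The part of other cell types in the results was not tested. Summed over each of these lists the level was at most 17.3 CPM in DMSO (endothelium) and at most 11.1 CPM in DMSO + LPS (T cell). The gene Pycard, which encodes the inflammasome adaptor ASC that this line is known to lack, was at 0.0170 and 0.0176 CPM in DMSO and 0.0873 and 0.0852 CPM in DMSO + LPS.

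A gene was called when it differed at least 1.5-fold with a Benjamini-Hochberg adjusted p below 0.05 in edgeR's quasi-likelihood test over all genes tested. Since 2 libraries were set against 2, the smallest p an exact permutation test allows is 0.333, and the adjusted p-values draw on spread estimated jointly from the 5 groups and from all genes. Between DMSO + LPS and DMSO, 3995 of 14172 genes were called, or 28.2%. Of these, 2072 (14.6% of the genes tested) were higher and 1923 (13.6%) were lower in DMSO + LPS. Among all genes tested, both DMSO + LPS libraries lay above both DMSO libraries for 5415 and below them for 5478, and these include all 3995 genes called. The increases reached further than the decreases. At least 4-fold differences were called for 736 genes in the higher direction and 259 in the lower, and at least 16-fold differences for 258 and 13. The scaling bears on the split between the directions. Scaled by library totals alone, the median of all genes shifted by −0.20 on the log2 scale and the calls were 1582 higher and 2938 lower, a share of 35.0% higher in place of 51.9%.

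**Figure D1:**
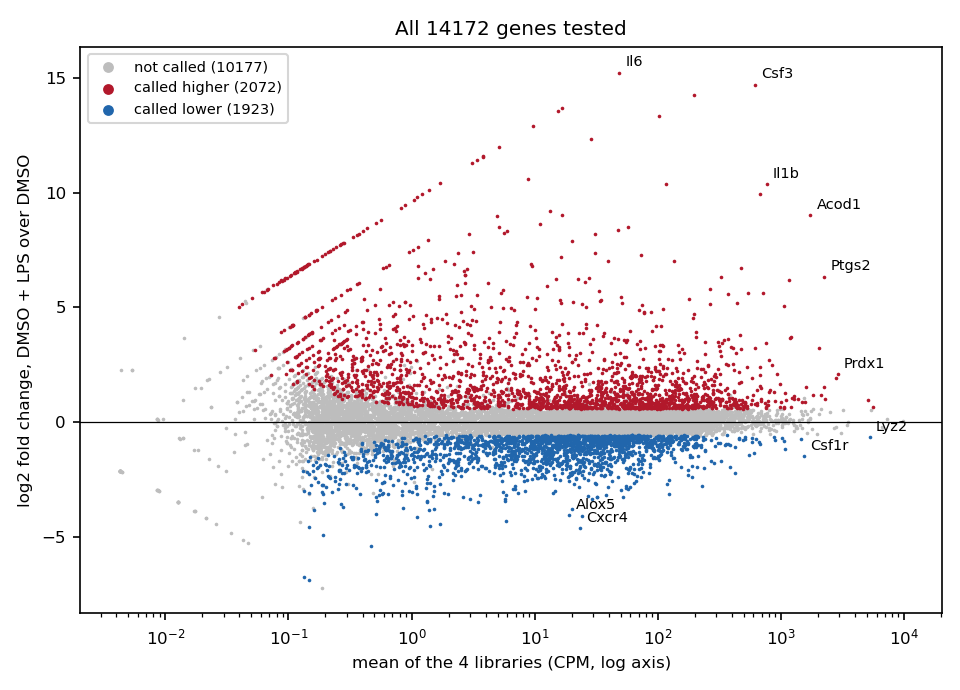
Each point is 1 of the 14172 genes tested, with the mean of the 4 libraries in CPM on a log axis and the log2 fold change of DMSO + LPS over DMSO on the vertical axis, and 29 genes without counts in these libraries are not drawn. The 2072 genes called higher (red) reached a log2 fold change of 15.25, and the straight lines at the upper left are genes with the same few counts in DMSO, where the fitted value depends on a small constant added to the counts.

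The genes called higher took up 12.1% of all counts in each DMSO library and 27.4% in each DMSO + LPS library. Those called lower fell from 12.4 and 12.8% to 5.44 and 5.36%. These shares follow from the choice of the genes and carry no test. The 5 genes with the largest gain in CPM were Ptgs2, Prdx1, Acod1, Actb and Ccl9, and the 5 with the largest loss were Lyz2, Csf1r, Laptm5, Ptma and Ank. Actb, which encodes β-actin and is widely used as a reference transcript, was at 3523 and 3430.0 CPM in DMSO and 6763 and 6844 CPM in DMSO + LPS (log2 fold change 0.97, SE 0.04, adjusted p = 5.12e-07). It was also called under scaling by library totals. Lyz2, the macrophage lysozyme, was at 6841 and 6066 CPM in DMSO and 4093 and 4160.3 CPM in DMSO + LPS (log2 fold change −0.65, SE 0.08, adjusted p = 0.000277), and without DMSO replicate 1 its log2 fold change was −0.56 and it was not called. The losses of Laptm5, a lysosomal membrane protein gene, Ptma, the prothymosin α gene, and Ank, a transporter gene, had log2 fold changes of −1.19, −0.74 and −0.83. Reads of Lyz2 and its close copy Lyz1 may be split between them by the counting.

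The receptor and its proximal signal chain were measured in 23 genes, of which 7 were called higher and 2 lower. Tlr4 (ENSMUSG00000039005, chromosome 4, 66827584 to 66930284), the LPS receptor itself, was at 105 and 121 CPM in DMSO and 54.1 and 52.1 CPM in DMSO + LPS, so that both LPS libraries lay below both controls (log2 fold change −1.09, SE 0.12, adjusted p = 0.000111). Cd14 (ENSMUSG00000051439), the co-receptor that delivers LPS, was at 1149 and 1129.7 CPM in DMSO and 3261 and 3362 CPM in DMSO + LPS (log2 fold change 1.54, SE 0.04, adjusted p = 2.41e-08). Ly96, which encodes MD-2, was higher as well (log2 fold change 0.80). The adaptors differed among themselves. Transcripts of Ticam1, which encodes TRIF, were at 24.0 and 22.2 CPM in DMSO and 67.0 and 66.7 CPM in DMSO + LPS (log2 fold change 1.53), and those of Ticam2, the sorting adaptor of TRIF, were at 9.40 and 9.69 CPM in DMSO and 3.82 and 4.0 CPM in DMSO + LPS (log2 fold change −1.29). Myd88 had a log2 fold change of 0.75 and was not called under scaling by library totals. The largest difference in this group was that of the kinase gene Ikbke, at 4.17 and 5.57 CPM in DMSO and 69.3 and 63.8 CPM in DMSO + LPS (log2 fold change 3.77). Of the kinases and ubiquitin ligases that act in between, Irak4, Traf6, Map3k7, Chuk and Ikbkb had log2 fold changes between −0.40 and 0.13 and were not called. Irak1, a kinase gene with a log2 fold change of −0.55, was not called either, but was called lower without DMSO replicate 1 (−0.60). Under scaling by library totals 6 genes of this group were called higher and 4 lower, with Irak1 (−0.75) and Map3k7 (−0.61) among the latter. Among the 10 genes tested of Toll-like receptors and their chaperone Unc93b1, 4 were called higher (Tlr1, Tlr2, Tlr3 and Tlr6) and 3 lower (Tlr4, Tlr8 and Tlr13). Under scaling by library totals 3 were called higher and 4 lower, and their median log2 fold change of 0.06 became −0.15. With that scaling Tlr2 was not called (0.47) and Tlr7 was called lower (−0.69). Tlr13 was at the fold threshold (log2 fold change −0.59) and was not called under most alternatives, among them leaving out DMSO replicate 2 (−0.49) or DMSO + LPS replicate 2 (−0.51).

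NF-κB is held in the cytoplasm by IκB proteins and induces the genes of several of its own subunits and inhibitors. Of 11 genes of this system, 10 were called higher and 0 lower, with a median log2 fold change of 1.95 against 0.00 over all genes tested. Nfkbia, which encodes the inhibitor IκBα, was at 81.6 and 76.6 CPM in DMSO and 553 and 597 CPM in DMSO + LPS (log2 fold change 2.86, SE 0.07, adjusted p = 2.35e-08). Nfkbiz, a nuclear IκB that acts as a coactivator of secondary response genes, showed the largest difference, from 5.68 and 6.41 CPM to 172 and 169.7 CPM (log2 fold change 4.82). The one gene not called was Rela, which encodes the p65 subunit, at 78.3 and 78.2 CPM in DMSO and 98.0 and 101 CPM in DMSO + LPS (log2 fold change 0.35).

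Genes that limit the response were also higher. Of 22 such genes tested, 17 were called higher and 0 lower, with a median log2 fold change of 2.47. Il1rn, the interleukin-1 receptor antagonist, had the highest level of them per length with LPS, with 31.5 CPM per kilobase in DMSO and 409 in DMSO + LPS. Socs3, an inhibitor of cytokine receptor signaling, was at 8.57 and 9.02 CPM in DMSO and 922 and 959 CPM in DMSO + LPS (log2 fold change 6.74). The deubiquitinase gene Tnfaip3, which encodes A20, was at 6.96 and 7.45 CPM in DMSO and 115 and 109.6 CPM in DMSO + LPS (log2 fold change 3.96). Phosphatases of MAP kinases behaved alike in direction, with log2 fold changes of 1.97, 4.81, 5.36 and 1.47 for Dusp1, Dusp2, Dusp5 and Dusp16. The RNA-decay factors Zfp36 and Zc3h12a, which shorten the life of cytokine transcripts, had log2 fold changes of 3.28 and 3.97. Cish had 0 counts in both DMSO libraries and 117 and 114 in DMSO + LPS, at least 85.4-fold higher when 3 counts over both DMSO libraries are taken as the limit that a count of 0 allows. The genes not called were N4bp1, Otulin, Cyld, Tollip and Sigirr.

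Of 27 cytokine genes tested, 25 were called higher and 0 lower, and their median log2 fold change was 3.83. Il6 (ENSMUSG00000025746, chromosome 5, 30013114 to 30019981) had 0 and 0 counts in DMSO and 5420 and 4648 in DMSO + LPS, or 94.7 and 99.0 CPM, at least 3721-fold higher than the limit of 3 counts in DMSO (log2 fold change 15.25 with an adjusted p of 5.64e-08). Interleukin-6 is a cytokine of the acute phase. Il1a (ENSMUSG00000027399, chromosome 2, 129299610 to 129309972) had 1 and 1 counts in DMSO and 23019 and 18458 in DMSO + LPS, a ratio of 22996 with a 95% counting interval from 6366 to 189891. Il1b (ENSMUSG00000027398, chromosome 2, 129364570 to 129371139), which encodes the precursor of secreted interleukin-1β, was detected without LPS, at 1.16 and 1.15 CPM in DMSO and 1529 and 1541 CPM in DMSO + LPS (log2 fold change 10.38, SE 0.07, adjusted p = 5.23e-11). Csf3 (ENSMUSG00000038067, chromosome 11, 98701263 to 98703629), the granulocyte colony-stimulating factor gene, had 4 and 1 counts in DMSO and 69433 and 59610 in DMSO + LPS (log2 fold change 14.73 with an adjusted p of 2.22e-09). Tnf (ENSMUSG00000024401, chromosome 17, 35199381 to 35202007) had a higher level without LPS, at 27.6 and 28.4 CPM in DMSO and 1396 and 1422 CPM in DMSO + LPS, a 50.3-fold difference (log2 fold change 5.65, SE 0.04, adjusted p = 1.21e-10). In each of these genes the replicates of a group were close beside the difference between groups.

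Other cytokine genes stayed at low levels with LPS although they were called. Ifnb1 (ENSMUSG00000048806, chromosome 4, 88522025 to 88522774), the gene of interferon β, had 4 and 6 counts in DMSO and 60 and 58 in DMSO + LPS (log2 fold change 3.68, SE 0.33, adjusted p = 3.71e-05). Il12b had 0 counts in DMSO and 25 and 20 with LPS, at least 16.6-fold higher, and Il12a, the partner subunit of interleukin-12, had 0 and 1 counts with LPS and was not tested. Il10, which encodes an anti-inflammatory cytokine, was at 0.272 and 0.123 CPM in DMSO and 10.8 and 10.9 CPM in DMSO + LPS (log2 fold change 5.76). Spp1, which encodes osteopontin, was the cytokine gene with the highest level per length in both groups, at 681 CPM per kilobase in DMSO and 1522 in DMSO + LPS, and rose by less (log2 fold change 1.16). Tnfsf9 and Gdf15 were not called, with log2 fold changes of 0.57 and 0.71. Tnfsf9 was near the fold threshold and was called higher under 6 alternatives. Among them were edgeR on the 4 libraries alone (0.59) and leaving out DMSO replicate 2 (0.59) or DMSO + LPS replicate 1 (0.66). Crossed pairing of the replicates (0.59, adjusted p = 0.00105) was another. It was chosen after the replicate differences were seen and is no independent support.

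Chemokines attract leukocytes, those of the CC type mainly monocytes and T cells and several of the CXC type neutrophils. Of 18 chemokine genes tested, 16 were called higher and 1 lower, with a median log2 fold change of 4.61. Per length the highest level with LPS was that of Ccl3, with 41.4 CPM per kilobase in DMSO and 3011 in DMSO + LPS, followed by Ccl9 and Ccl4. Ccl2 (ENSMUSG00000035385, chromosome 11, 82035571 to 82037453), the main monocyte attractant, was at 22.8 and 23.3 CPM in DMSO and 844 and 862 CPM in DMSO + LPS (log2 fold change 5.21, SE 0.05, adjusted p = 2.64e-10). Ccl5 (ENSMUSG00000035042, chromosome 11, 83525778 to 83530518) was at 2.18 and 1.97 CPM in DMSO and 263 and 280.2 CPM in DMSO + LPS, a 131-fold difference (log2 fold change 7.03, SE 0.35, adjusted p = 1.1e-06). Ccl9 (ENSMUSG00000019122, chromosome 11, 83572919 to 83578636) was already abundant without LPS, at 399 and 385 CPM, and reached 3627 and 3746 CPM (log2 fold change 3.23 with an adjusted p of 2.09e-09). The neutrophil attractants Cxcl2 and Cxcl3 were among the genes with the largest differences. Cxcl2 was at 1.63 and 1.06 CPM in DMSO and 1335 and 1379 CPM in DMSO + LPS (log2 fold change 9.97), and Cxcl3 had 0 counts in DMSO and 1824 and 1667 in DMSO + LPS, at least 1290.3-fold higher. The related gene Cxcl1 had 1 and 0 counts with LPS and was not tested. Cxcl14 was called lower, at 5.17 and 3.96 CPM in DMSO and 1.19 and 1.49 CPM in DMSO + LPS (log2 fold change −1.77), and Cxcl16 was not called (log2 fold change −0.32).

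The promoters of Il6, Cxcl3 and Cxcl2 are shown because, in the order of fold change among genes called higher with a mean of at least 5 CPM, they are the first that hold a κB motif, the sequence bound by NF-κB. The 250 bases before the RefSeq start site are given on GRCm38.p6, 5′ to 3′ on the strand of the gene, with the motif in capitals. They lie at chr5:30012864-30013113, plus strand for Il6, at chr5:90785851-90786100, plus strand for Cxcl3 and at chr5:90903649-90903898, plus strand for Cxcl2. The capitals stand 35 to 44 bases before the start in Il6, 63 to 73 in Cxcl3 and 87 to 97 in Cxcl2, and in the Cxcl genes they join 2 overlapping matches on opposite strands. A match is a stretch of letters and does not show binding.
Il6: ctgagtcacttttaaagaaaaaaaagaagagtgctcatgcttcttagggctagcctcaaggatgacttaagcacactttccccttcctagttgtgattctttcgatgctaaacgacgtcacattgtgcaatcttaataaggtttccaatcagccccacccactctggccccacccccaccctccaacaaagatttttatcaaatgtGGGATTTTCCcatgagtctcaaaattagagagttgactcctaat
Cxcl3: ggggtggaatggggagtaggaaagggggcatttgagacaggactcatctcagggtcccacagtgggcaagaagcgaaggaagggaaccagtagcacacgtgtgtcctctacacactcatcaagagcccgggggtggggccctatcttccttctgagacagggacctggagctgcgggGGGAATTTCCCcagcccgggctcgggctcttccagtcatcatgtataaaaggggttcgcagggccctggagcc
Cxcl2: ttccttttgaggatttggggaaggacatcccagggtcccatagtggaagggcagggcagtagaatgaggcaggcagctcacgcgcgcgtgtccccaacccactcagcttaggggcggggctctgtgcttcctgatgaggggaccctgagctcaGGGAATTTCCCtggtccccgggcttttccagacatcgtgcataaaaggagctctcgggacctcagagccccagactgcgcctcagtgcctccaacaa

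Other genes were also among those with the largest differences. Serpinb2 (ENSMUSG00000062345, chromosome 1, 107511423 to 107535478), an inhibitor of plasminogen activators, had 0 counts in DMSO and 1772 and 1447 in DMSO + LPS, at least 1189.8-fold higher. Il1f6 (ENSMUSG00000026984, chromosome 2, 24215418 to 24225702), which encodes interleukin-36α of the interleukin-1 family, likewise had 0 counts in DMSO and 591 and 489 with LPS, at least 399-fold higher. Zfp811 (ENSMUSG00000055202, chromosome 17, 32795676 to 32809931), a zinc finger gene, had 3 and 2 counts in DMSO and 1526 and 1268 in DMSO + LPS (log2 fold change 9.20 with an adjusted p of 4.78e-08).

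**Figure D2:**
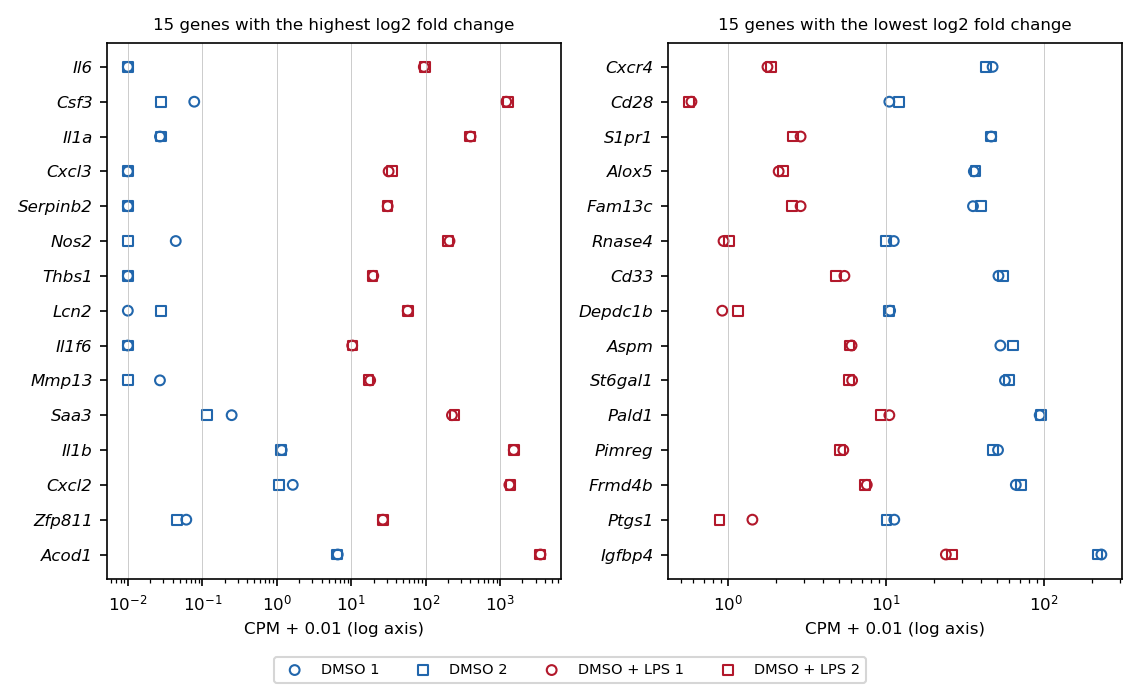
CPM plus 0.01 on a log axis in each of the 2 DMSO libraries (blue) and the 2 DMSO + LPS libraries (red), for the 15 genes with the highest and the 15 with the lowest log2 fold change among genes called with a mean of at least 5 CPM whose groups did not overlap. The groups lie apart in every gene shown because the genes were chosen so, and points at the left edge of the first panel are libraries with 0 counts.

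Interferon-stimulated genes encode antiviral effectors, sensors and signaling factors that are induced through the interferon receptor. All 48 such genes tested were called higher, in each fit that left out a library as well, and the median log2 fold change was 2.70. Their summed level was 2077 and 2156 CPM in DMSO and 12233 and 12049 CPM in DMSO + LPS. Rsad2, which encodes the antiviral enzyme viperin, was at 14.3 and 16.2 CPM in DMSO and 751 and 719 CPM in DMSO + LPS (log2 fold change 5.59). Ifit1 (ENSMUSG00000034459, chromosome 19, 34640871 to 34650009), whose product binds viral RNA, was at 14.9 and 13.9 CPM in DMSO and 383 and 371 CPM in DMSO + LPS (log2 fold change 4.71, SE 0.09, adjusted p = 7.6e-09). Isg15, a ubiquitin-like modifier, had the highest level per length of these genes with LPS, at 19.3 CPM per kilobase in DMSO and 682 in DMSO + LPS (log2 fold change 5.14). Genes of the immunity-related GTPases and guanylate-binding proteins, families that attack vacuoles of intracellular microbes, had log2 fold changes from 2.31 for Irgm2 to 5.26 for Gbp2. Gbp5, also on the list, could not be matched to the table by its identifier. The smallest difference called was that of the immunoproteasome gene Psmb9 (log2 fold change 0.77), which was not called under scaling by library totals. Members of the Ifit, Oas, Gbp and Slfn families have near-identical copies, so reads may be divided between them.

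Among the factors and receptors of the interferon pathway the picture was mixed, with 9 of 21 genes called higher and 1 lower. Irf7, the factor that amplifies interferon production, was at 92.8 and 93.9 CPM in DMSO and 849 and 876 CPM in DMSO + LPS (log2 fold change 3.21, SE 0.07, adjusted p = 1.26e-08). Stat2 and Irf9, which encode factors that carry the interferon signal to the nucleus, were called higher (log2 fold changes 1.67 and 1.23). Irf3, the factor that acts directly downstream of TRIF, was at 34.2 and 35.4 CPM in DMSO and 37.0 and 35.9 CPM in DMSO + LPS and was not called (log2 fold change 0.07, SE 0.10), as was Irf1 (log2 fold change 0.12). The receptor subunit genes Ifnar1 and Ifnar2 were not called, with log2 fold changes of 0.08 and −0.48, though Ifnar2 was called lower under scaling by library totals (−0.69). Of the receptor for interferon γ, Ifngr1 was lower and Ifngr2 higher (log2 fold changes −1.05 and 0.62), and the call of Ifngr2 was lost without DMSO replicate 1 (log2 fold change 0.58) and under scaling by library totals (0.41).

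The promoters of Mmp13, Saa3 and Rsad2 are the first in the order of fold change that hold the core of the interferon-stimulated response element, GAAANNGAAA on either strand, and are shown in the same way with the match in capitals. They lie at chr9:7272264-7272513, plus strand for Mmp13, at chr7:46715677-46715926, minus strand for Saa3 and at chr12:26456453-26456702, minus strand for Rsad2. The matches stood 137 to 146, 116 to 125 and 111 to 120 bases before the start. Of the 3 genes, Rsad2 is an interferon-stimulated gene, Saa3 encodes an acute-phase protein and Mmp13 a collagenase.
Mmp13: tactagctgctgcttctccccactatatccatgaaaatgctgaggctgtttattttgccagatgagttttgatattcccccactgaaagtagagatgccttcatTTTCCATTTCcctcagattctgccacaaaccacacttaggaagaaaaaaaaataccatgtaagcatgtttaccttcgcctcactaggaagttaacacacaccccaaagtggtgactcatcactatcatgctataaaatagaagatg
Saa3: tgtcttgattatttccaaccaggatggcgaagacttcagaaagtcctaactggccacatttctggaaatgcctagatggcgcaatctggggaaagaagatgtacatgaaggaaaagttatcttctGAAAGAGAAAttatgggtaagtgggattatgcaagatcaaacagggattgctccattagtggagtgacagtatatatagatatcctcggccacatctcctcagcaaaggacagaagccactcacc
Rsad2: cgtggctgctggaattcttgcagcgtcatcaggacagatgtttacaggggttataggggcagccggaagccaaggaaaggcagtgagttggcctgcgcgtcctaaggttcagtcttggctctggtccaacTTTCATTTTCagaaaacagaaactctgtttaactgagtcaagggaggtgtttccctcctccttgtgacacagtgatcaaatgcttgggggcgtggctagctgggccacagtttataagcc

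Enzymes that make the small mediators of inflammation diverged. Of 20 genes tested, 11 were called higher and 4 lower. Nos2 (ENSMUSG00000020826, chromosome 11, 78920787 to 78960254), the inducible nitric oxide synthase, had 2 and 0 counts in DMSO and 11999 and 9463 in DMSO + LPS, a ratio of 11899 with a 95% counting interval from 3294 to 98261 (log2 fold change 13.34 with an adjusted p of 2.22e-09). The genes that supply it were higher too, with log2 fold changes of 8.50 for the arginine transporter gene Slc7a2, 2.03 for Ass1, which regenerates arginine, and 2.49 for Gch1, which makes its cofactor. Acod1 (ENSMUSG00000022126, chromosome 14, 103046977 to 103056573), which makes itaconate, was at 6.60 and 6.52 CPM in DMSO and 3494 and 3438 CPM in DMSO + LPS, a 528-fold difference (log2 fold change 9.05, SE 0.05, adjusted p = 4.13e-11). Per length it had the highest level of the group with LPS, 1321 CPM per kilobase.

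The cyclooxygenase genes moved in opposite directions. Ptgs2 (ENSMUSG00000032487, chromosome 1, 150100031 to 150108227), the inducible cyclooxygenase, was at 51.3 and 57.7 CPM in DMSO and 4578 and 4315 CPM in DMSO + LPS (log2 fold change 6.35, SE 0.14, adjusted p = 1.89e-08). Ptgs1, the constitutive form, was at 11.2 and 10.0 CPM in DMSO and 1.41 and 0.873 CPM in DMSO + LPS (log2 fold change −3.20, SE 0.21, adjusted p = 6.58e-06). Ptges, which makes prostaglandin E2, was called higher (log2 fold change 2.42). The 3 leukotriene genes measured were lower. Alox5, the 5-lipoxygenase gene, was at 35.8 and 36.7 CPM in DMSO and 2.08 and 2.21 CPM in DMSO + LPS (log2 fold change −4.08, SE 0.16, adjusted p = 3.24e-07), its activating protein gene Alox5ap was at 287 and 238 CPM in DMSO and 128 and 128 CPM in DMSO + LPS (log2 fold change −1.03), and Lta4h had a log2 fold change of −0.65.

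Genes of antigen presentation and costimulation were called higher in 18 of 24 cases and lower in 0, with a median log2 fold change of 1.42. H2-K1 and H2-D1, which encode classical class I chains, had log2 fold changes of 0.97 and 0.95, and the peptide transporter genes Tap1 and Tap2 of 2.03 and 1.53. Class II genes were barely detected, with H2-Aa at 0.0510 and 0 CPM in DMSO and 0 and 0 CPM in DMSO + LPS and H2-Ab1 at 0.0850 and 0.106 CPM in DMSO and 0.157 and 0.128 CPM in DMSO + LPS, and Ciita, their transactivator, was not tested. Among costimulatory genes Cd40 was at 0.952 and 0.916 CPM in DMSO and 144 and 148 CPM in DMSO + LPS (log2 fold change 7.28), and Cd86 (ENSMUSG00000022901, chromosome 16, 36603869 to 36666081) was at 0.986 and 0.934 CPM in DMSO and 4.80 and 4.26 CPM in DMSO + LPS (log2 fold change 2.24, SE 0.16, adjusted p = 9.33e-06). The checkpoint ligand gene Cd274, which encodes PD-L1, rose from 5.58 and 5.41 to 151 and 145 CPM (log2 fold change 4.75). Psmb8 and H2-Q4 had log2 fold changes of 1.65 and 1.28 and were not called, and their DMSO libraries were at 18.2 and 8.33 CPM and at 41.6 and 23.9 CPM. Both were called higher under 6 alternatives. Among them were no count filter (1.65 and 1.28) and DESeq2 or edgeR on the 4 libraries alone (1.66 and 1.29 in each). Another was the replicate number as a block (1.81 and 1.39, adjusted p = 0.00952 and 0.0184). The rest were crossed pairing of the replicates and a score of the replicate difference in short transcripts. Fits with a block or the score remove spread between replicates by construction and are no independent support.

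Of 12 genes of the inflammasome, NOD receptors and pyroptosis, 8 were called higher and 0 lower. Nlrp3, a sensor that assembles an inflammasome, was at 64.9 and 70.1 CPM in DMSO and 582 and 568 CPM in DMSO + LPS (log2 fold change 3.09), and Casp4, the murine caspase-11 gene that senses LPS in the cytosol, was at 8.15 and 8.46 CPM in DMSO and 98.4 and 98.3 CPM in DMSO + LPS (log2 fold change 3.57). The pore gene Gsdmd and the membrane rupture gene Ninj1 had log2 fold changes of 1.14 and 1.22. Aim2, Nlrc4, Nlrp1b and Mefv were not called, though Nlrc4 and Mefv were called higher without DMSO replicate 2 (0.62 and 1.79) and Nlrp1b lower under scaling by library totals (−0.63).

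Among 20 genes of cell survival and death, 11 were called higher and 1 lower. Those higher included inhibitors of apoptosis, such as Bcl2a1d at 7.74 and 6.48 CPM in DMSO and 88.1 and 89.4 CPM in DMSO + LPS (log2 fold change 3.64), Birc3 (log2 fold change 1.85) and Cflar (log2 fold change 1.92). They also included the death receptor gene Fas, at 2.11 and 2.57 CPM in DMSO and 33.8 and 35.5 CPM in DMSO + LPS (log2 fold change 3.89), and the pro-apoptotic gene Bcl2l11 (log2 fold change 3.03). Bbc3, a target of p53, was the one called lower (log2 fold change −1.31). The Bcl2a1 genes are near-identical copies, and the call of Bcl2a1b was lost without either DMSO library or without DMSO + LPS replicate 2, with log2 fold changes from 4.35 to 5.50.

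At 12 h the immediate early factors were not uniformly higher. Fos was at 94.0 and 99.6 CPM in DMSO and 95.6 and 95.4 CPM in DMSO + LPS (log2 fold change −0.02) and Egr1 at 25.2 and 25.0 CPM in DMSO and 26.8 and 27.5 CPM in DMSO + LPS (log2 fold change 0.11), and neither was called. Of the 21 genes of this group tested, 13 were called higher and 1 lower, and 8 were called higher under scaling by library totals. Myc was at 1.53 and 1.76 CPM in DMSO and 66.5 and 67.5 CPM in DMSO + LPS (log2 fold change 5.35, SE 0.09, adjusted p = 4.33e-09), Ier3 at 21.3 and 21.8 CPM in DMSO and 1029 and 1097 CPM in DMSO + LPS (log2 fold change 5.62), and Fosl1 at 9.49 and 8.70 CPM in DMSO and 101 and 103 CPM in DMSO + LPS (log2 fold change 3.49). Egr3 was called lower, at 4.83 and 6.06 CPM in DMSO and 0.437 and 0.639 CPM in DMSO + LPS (log2 fold change −3.34).

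Secreted defense, complement and matrix genes covered a wide range, with 19 of 30 called higher, 6 called lower and log2 fold changes from −3.48 to 12.94. Lcn2 (ENSMUSG00000026822, chromosome 2, 32384633 to 32388252), which encodes a siderophore-binding protein, had 0 and 1 counts in DMSO and 3292 and 2742 in DMSO + LPS, a ratio of 6691 with a 95% counting interval from 1200.4 to 264316. Saa3 (ENSMUSG00000040026, chromosome 7, 46711998 to 46715700) was at 0.238 and 0.106 CPM in DMSO and 226 and 245 CPM in DMSO + LPS (log2 fold change 10.39). Thbs1, the thrombospondin 1 gene, had 0 counts in DMSO and 1135 and 908 with LPS, at least 755-fold higher. Several matrix metalloproteinases rose from a trace, among them Mmp13 with 1 and 0 counts in DMSO and 1031 and 801 in DMSO + LPS and Mmp9 at 0.153 and 0.282 CPM in DMSO and 33.2 and 31.9 CPM in DMSO + LPS (log2 fold change 7.22). The complement genes divided. C3 was at 2.69 and 2.71 CPM in DMSO and 29.5 and 25.8 CPM in DMSO + LPS (log2 fold change 3.36), whereas the C1q chain genes C1qa, C1qb and C1qc had log2 fold changes of −3.48, −2.78 and −2.80. The metalloproteinase inhibitor gene Timp2 was lower as well (log2 fold change −2.23).

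Surface receptors and lineage factors of macrophages moved in both directions, with 18 of 36 called higher and 9 lower. Csf1r (ENSMUSG00000024621), the receptor for the growth factor on which macrophages depend, was at 2309.8 and 2224 CPM in DMSO and 822 and 805 CPM in DMSO + LPS (log2 fold change −1.48, SE 0.05, adjusted p = 1.05e-07). It overlaps Hmgxb3 on the opposite strand, whose counts were between 2239 and 4493 and higher in DMSO + LPS. Its ligand gene Csf1 rose from 0.969 and 0.599 to 31.2 and 32.2 CPM (log2 fold change 5.33). Cx3cr1, Trem2, Mertk and Fcgr3, which act in homeostatic sensing and uptake, had log2 fold changes of −1.96, −1.90, −1.37 and −2.32. Clec4e, a receptor for mycobacterial glycolipid, and the inhibitory Fc receptor gene Fcgr2b were higher (log2 fold changes 2.51 and 2.62), as was the integrin gene Itgax (log2 fold change 4.22). Adgre1, which encodes F4/80, was at 121 and 121 CPM in DMSO and 264 and 247 CPM in DMSO + LPS (log2 fold change 1.07), and Cd68 was at 657 and 633 CPM in DMSO and 609.9 and 601 CPM in DMSO + LPS and was not called (log2 fold change −0.09).

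Among genes called with a mean of at least 5 CPM, the 15 lowest log2 fold changes were those of Cxcr4, Cd28, S1pr1, Alox5, Fam13c, Rnase4, Cd33, Depdc1b, Aspm, St6gal1, Pald1, Pimreg, Frmd4b, Ptgs1 and Igfbp4. Cxcr4 (ENSMUSG00000045382, chromosome 1, 128588199 to 128592293), the receptor for the chemokine CXCL12, was at 47.1 and 42.6 CPM in DMSO and 1.76 and 1.85 CPM in DMSO + LPS, a 24.8-fold difference (log2 fold change −4.63, SE 0.10, adjusted p = 1.36e-08). S1pr1, a receptor for sphingosine 1-phosphate that guides cells out of tissues, was at 46.1 and 46.2 CPM in DMSO and 2.86 and 2.56 CPM in DMSO + LPS (log2 fold change −4.09 with an adjusted p of 5.35e-08). Cd28, best known as a costimulatory receptor of T cells, was at 10.5 and 12.1 CPM in DMSO and 0.576 and 0.554 CPM in DMSO + LPS (log2 fold change −4.31 with an adjusted p of 2.13e-06), and the summed T cell markers were at 5.32 and 4.79 CPM in DMSO and 10.5 and 11.1 CPM in DMSO + LPS. Cd33, a receptor that binds sialic acid, was at 51.3 and 55.1 CPM in DMSO and 5.43 and 4.81 CPM in DMSO + LPS (log2 fold change −3.37 with an adjusted p of 5.29e-08). Aspm, Depdc1b and Pimreg, which act in cell division and are not in the list of mitosis genes given further on, had log2 fold changes of −3.29, −3.35 and −3.24.

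Cells that divide express a program of mitosis and DNA replication genes, many of which are repressed outside the cycle through a promoter element called CHR. All 29 mitosis and G2/M genes tested were called lower in DMSO + LPS, with a median log2 fold change of −2.05, and all 29 were called lower whichever of the 4 libraries was left out and under scaling by library totals. Their summed level was 2836 and 3059 CPM in DMSO and 686 and 667 CPM in DMSO + LPS. Mki67, which encodes the proliferation marker Ki-67, was at 358 and 436 CPM in DMSO and 62.1 and 53.0 CPM in DMSO + LPS (log2 fold change −2.79, SE 0.16, adjusted p = 2.8e-06). Ccna2, the cyclin A2 gene, was at 95.2 and 97.9 CPM in DMSO and 14.0 and 13.5 CPM in DMSO + LPS (log2 fold change −2.81), and Plk1, a mitotic kinase gene, was at 72.3 and 73.8 CPM in DMSO and 11.9 and 12.8 CPM in DMSO + LPS (log2 fold change −2.57). Within this list the largest and the smallest difference were those of Cenpf and Aurka, with log2 fold changes of −2.98 and −1.26. In bulk RNA, fewer cells that express a gene and less of its RNA per cell cannot be told apart.

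Of 33 DNA replication genes, 0 were called higher and 28 lower, with a median log2 fold change of −1.13. The genes of the replicative helicase, Mcm2 to Mcm7, had log2 fold changes between −1.27 and −0.67. Tk1, the thymidine kinase gene, showed the largest difference, at 49.9 and 42.2 CPM in DMSO and 7.84 and 8.28 CPM in DMSO + LPS (log2 fold change −2.52), followed by E2f2 and Ccne2. Pcna, the polymerase clamp gene, had the highest level per length in both groups, was at 314 and 289.9 CPM in DMSO and 243 and 256 CPM in DMSO + LPS and was not called (log2 fold change −0.27). The calls of Cdt1 and Rfc3 were lost without DMSO + LPS replicate 1, with log2 fold changes of −0.58 and −0.55.

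The regulators of G1 were divided, with 6 of 16 called higher and 5 lower. The fits that left out a library called 4 or 5 higher, and in each of them the call of Ccnd2, the cyclin D2 gene with 9 and 7 counts in DMSO and 37 and 46 in DMSO + LPS, was lost on its adjusted p (0.0705 to 0.156), with log2 fold changes from 2.20 to 2.80. Ccnd1 (ENSMUSG00000070348, chromosome 7, 144929931 to 144939925), the cyclin D1 gene, was at 190.5 and 194 CPM in DMSO and 142 and 137 CPM in DMSO + LPS and missed the fold threshold (log2 fold change −0.47, SE 0.05, adjusted p = 7.6e-05), but passed it under scaling by library totals (−0.67). The kinase inhibitor gene Cdkn1a, which encodes p21, had a log2 fold change of 0.59 that fell under the threshold without DMSO + LPS replicate 2 (0.55) and under scaling by library totals (0.38). Cdkn2c and Cdkn1b, also kinase inhibitor genes, were lower (log2 fold changes −1.71 and −0.75), and the stress gene Gadd45b was higher, at 12.1 and 11.4 CPM in DMSO and 118 and 130.3 CPM in DMSO + LPS (log2 fold change 3.41). Cdkn2a and Cdkn2b had 0 counts in all 4 libraries.

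**Figure D3:**
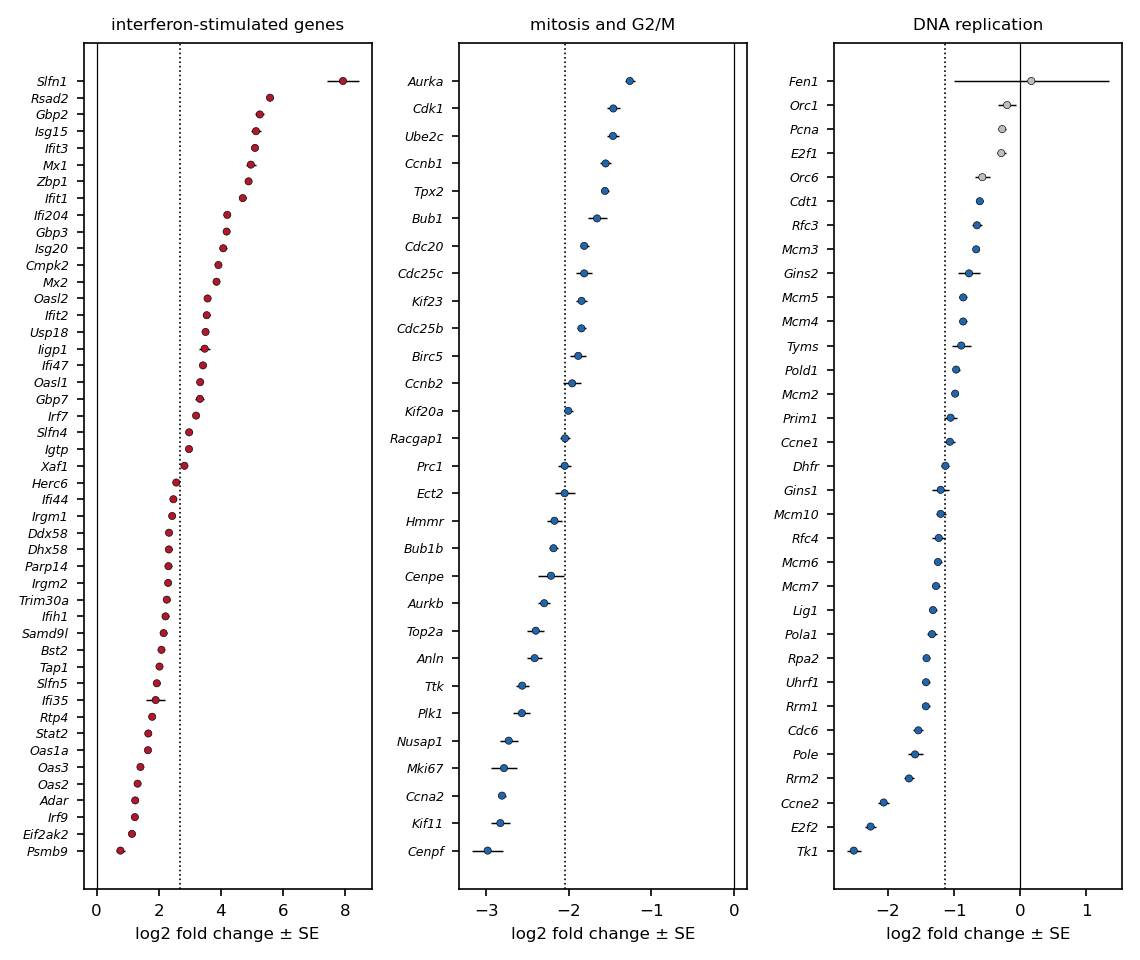
Log2 fold change of DMSO + LPS over DMSO with its standard error for the tested members of 3 gene lists (47 of the 48 interferon-stimulated genes are drawn), colored red where called higher, blue where called lower and grey where not called, with the median as a dotted line. All 47 interferon-stimulated genes drawn lie to the right, all 29 mitosis and G2/M genes lie to the left, and 28 of 33 DNA replication genes were called lower.

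The promoter of Kif11, a mitotic motor gene (log2 fold change −2.83), is shown because it is the first of the mitosis genes in the order of fold change that holds the CHR motif TTTGAA on either strand. Its 250 bases before the RefSeq start lie at chr19:37376132-37376381, plus strand, and the motif, in capitals, stands 14 to 19 bases before the start.
Kif11: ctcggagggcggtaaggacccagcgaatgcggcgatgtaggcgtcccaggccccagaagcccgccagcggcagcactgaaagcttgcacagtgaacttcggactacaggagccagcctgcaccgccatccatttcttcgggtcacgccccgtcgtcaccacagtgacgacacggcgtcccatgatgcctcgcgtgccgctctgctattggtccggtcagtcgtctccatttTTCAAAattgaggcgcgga

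Oxidant and antioxidant genes were called higher in 12 of 27 cases and lower in 0, with 9 called higher and 2 lower under scaling by library totals. Cybb, the catalytic subunit of the phagocyte oxidase, was at 242 and 274 CPM in DMSO and 1496 and 1362 CPM in DMSO + LPS (log2 fold change 2.47), while Ncf1 and Ncf4, genes of cytosolic partners, were not called. Sod2, the mitochondrial superoxide dismutase gene, was at 98.2 and 93.7 CPM in DMSO and 744 and 782 CPM in DMSO + LPS (log2 fold change 2.99). Prdx1 (ENSMUSG00000028691, chromosome 4, 116685544 to 116700822), a peroxiredoxin gene, was at 1149.6 and 1050.2 CPM in DMSO and 4654 and 4749 CPM in DMSO + LPS (log2 fold change 2.10, SE 0.06, adjusted p = 5.29e-08), and the cystine transporter gene Slc7a11 was at 59.2 and 67.0 CPM in DMSO and 906 and 829 CPM in DMSO + LPS (log2 fold change 3.78). Hmox1 (ENSMUSG00000005413, chromosome 8, 75093621 to 75100589), the heme oxygenase gene, was at 521 and 500.0 CPM in DMSO and 1241 and 1263 CPM in DMSO + LPS (log2 fold change 1.29, SE 0.06, adjusted p = 5.2e-07). Nqo1 (ENSMUSG00000003849, chromosome 8, 107388225 to 107403206), a quinone reductase gene, rose from 18 and 21 counts to 152 and 121 (log2 fold change 2.94, SE 0.14, adjusted p = 9e-07). Gclc, the catalytic subunit gene of glutathione synthesis, had a log2 fold change of −0.50 and was not called, and its partner Gclm was called higher (log2 fold change 0.75). Gclc was called lower without DMSO replicate 1 (−0.59) and under scaling by library totals (−0.71), and Gclm was not called under that scaling (0.54).

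Of 15 genes of iron, heme and metallothioneins, 8 were called higher and 1 lower. The metal transporter genes Slc11a1 and Slc11a2 had log2 fold changes of 2.17 and 2.66, and the transferrin receptor gene Tfrc was not called (log2 fold change −0.02). The ferrireductase gene Steap3 was lower (log2 fold change −1.81). Mt1 and Mt2, short metallothionein transcripts, differed between the DMSO libraries, at 263 and 112 CPM and at 207 and 98.6 CPM, and were not called. Both were called higher when a score of the replicate difference in short transcripts was added to the fit (0.62 and 0.80). Mt2 was also called with crossed pairing of the replicates (0.82, adjusted p = 0.0184). The score and the crossed pairing were chosen after the replicate differences were seen. They remove such spread by construction and are no independent support.

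Metabolic genes were grouped by pathway. In glycolysis 7 of 19 genes were called higher and 1 lower, and 3 were higher under scaling by library totals. The glucose transporter gene Slc2a1 was at 132 and 129.6 CPM in DMSO and 366 and 379 CPM in DMSO + LPS (log2 fold change 1.51), and Pdk1, a kinase gene that restrains entry of pyruvate into mitochondria, was at 39.4 and 42.5 CPM in DMSO and 15.9 and 15.3 CPM in DMSO + LPS (log2 fold change −1.39). Ldha and Pkm had log2 fold changes of −0.03 and 0.11 and were not called. Of 28 genes of the TCA cycle and respiratory chain, 0 were called higher and 1 lower, the latter being Idh2 at the fold threshold (log2 fold change −0.59), whose call was lost under 8 alternatives at the same fold threshold, among them leaving out DMSO replicate 1 (−0.55) or DMSO + LPS replicate 1 (−0.54). Under scaling by library totals 3 genes of this group were called lower. Sdha, a subunit gene of succinate dehydrogenase, had a log2 fold change of −0.53 and was not called, but was called lower under that scaling (−0.74). The 16 mitochondrially encoded genes tested had log2 fold changes from −0.54 to 0.56 and were not called, and those with an adjusted p below 0.05, such as mt-Nd1 (log2 fold change −0.32, adjusted p = 0.000202), missed the fold threshold. Mitochondrial transcripts made up 1.86 and 1.98% of the counts in DMSO and 1.42 and 1.36% in DMSO + LPS.

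Of 22 genes of cholesterol synthesis and sterol uptake, 3 were called higher and 4 lower, against 1 and 10 under scaling by library totals. The shares of 13.6% higher and 18.2% lower were near the 14.6% and 13.6% of all genes tested. Insig1, whose product restrains sterol synthesis, was at 110.4 and 126 CPM in DMSO and 195 and 201 CPM in DMSO + LPS (log2 fold change 0.75) and was called higher but was not called under scaling by library totals, and the late enzyme gene Dhcr7 was lower (log2 fold change −0.99). Of 16 genes of cholesterol export and nuclear receptors, 3 were called higher and 3 lower, or 18.75% each, also near the shares of all genes tested. Abca1, the cholesterol exporter gene, was called higher, at 11.1 and 13.8 CPM in DMSO and 28.3 and 25.5 CPM in DMSO + LPS (log2 fold change 1.11). Under scaling by library totals 3 genes of this list were called higher and 7 lower. Of 27 lysosomal genes, 3 were called higher and 3 lower, against 2 and 7 under scaling by library totals, so that 11.1% were higher and as many lower, near the 14.6% and 13.6% of all genes tested. Among these, Ctsz, a cathepsin gene, had a log2 fold change of 1.06 and Man2b1, a mannosidase gene, of −1.52. Of 21 genes of ER stress, ATF4 and heat shock, 14 were called higher and 0 lower. The chaperone gene Hspa5 of the endoplasmic reticulum was at 1244 and 1355 CPM in DMSO and 2939 and 2959 CPM in DMSO + LPS (log2 fold change 1.18), and the cytosolic Hsp90aa1 at 887 and 935 CPM in DMSO and 1844 and 1843 CPM in DMSO + LPS (log2 fold change 1.02).

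Among 19 transcripts commonly used as references, 3 were called higher and 0 lower. The share called higher, 15.8%, was near the 14.6% of all genes tested, of which 13.6% were called lower. Those called were Actb, B2m and Pgk1 (log2 fold changes 0.97, 0.78 and 1.02), of which B2m was not called under scaling by library totals. Gapdh had a log2 fold change of 0.56 and was called only without DMSO replicate 1 (0.68). Tbp and Hprt had log2 fold changes of 0.03 (SE 0.06) and −0.13 (SE 0.06).

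**Figure D4:**
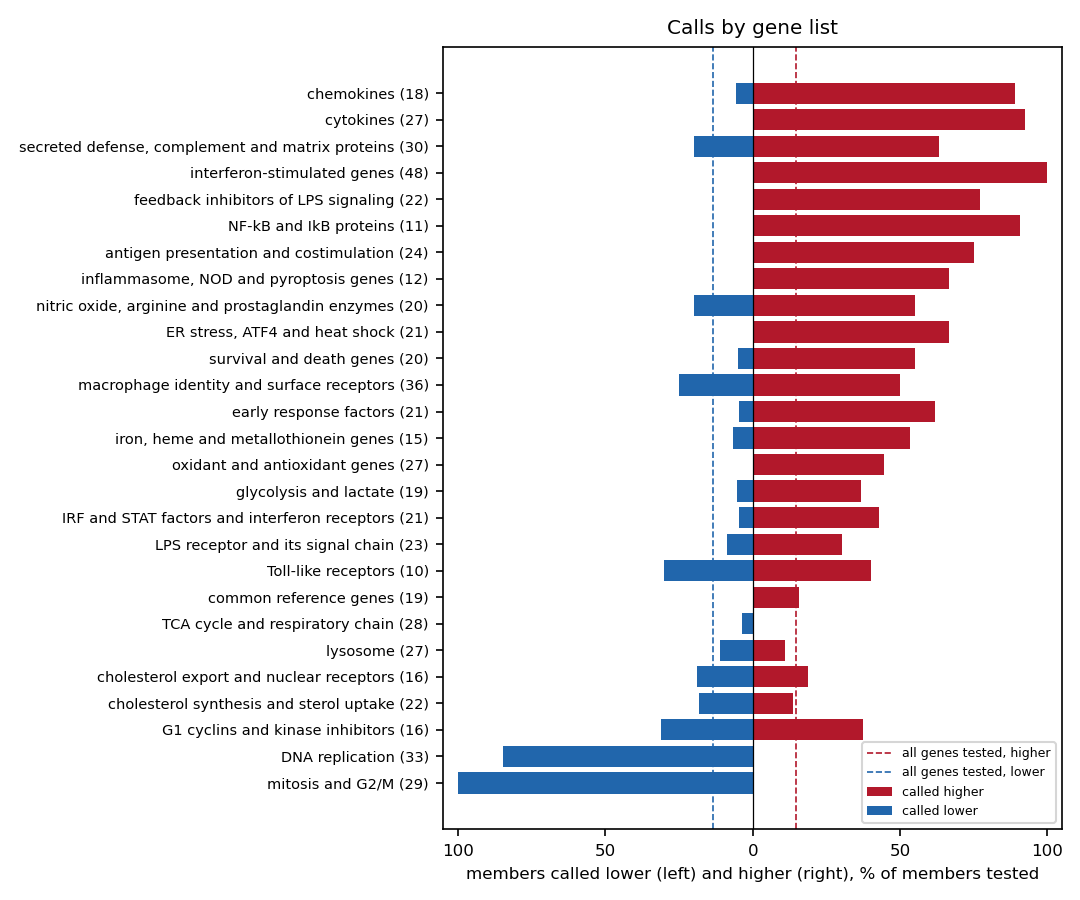
Share of the tested members of each of 27 gene lists that were called higher (red, to the right) or lower (blue, to the left) in DMSO + LPS, with the number tested in parentheses and the shares over all genes tested, 14.6% and 13.6%, as dashed lines. Bars for cytokines, chemokines, NF-κB proteins and interferon-stimulated genes extend far to the right, those for mitosis and DNA replication to the left, and the TCA cycle and lysosome lists stay short.

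Motif matches were counted in promoter windows from 250 bases before to 50 after the RefSeq start, on both strands, for 9671 of 11738 protein-coding genes tested on the chromosomes for which windows were at hand. The shares are a description without a test. The κB motif was found in 13.4% of genes called higher, 10.5% of those called lower and 9.27% of those not called, against 8.18% of all 27025 windows. The core of the interferon-stimulated response element was found in 7.27%, 2.92%, 2.51% and 3.49%, respectively, and in 19 of the 37 windows of the interferon-stimulated gene list. The AP-1 motif TGANTCA was in 9.18% of genes called higher, 3.96% of those called lower and 4.65% of those not called, against 7.93% of all windows. TATAAA, the box that helps to place the start of transcription in many inducible genes, was in 12.9%, 5.77%, 6.54% and 14.2%.

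In genes called lower the shares of CCAAT and CHR were higher than in genes called higher or not called. CCAAT was in 44.3% of genes called lower, 38.1% of those called higher and 38.5% of those not called, against 37.9% of all windows, and CHR in 17.1%, 13.5%, 11% and 18.1%. Of the 24 windows of the mitosis and G2/M list, 21 held CCAAT, 18 held CHR and 0 held TATAAA. The 171 windows of genes called at least 16-fold higher differed in base composition as well, with a median GC content of 51.0% and a median of 5 CpG dinucleotides, against 60.7% and 21 in genes not called. Of these windows 26.9% held TATAAA, 21.1% AP-1, 15.8% the response element and 34.5% CCAAT. The κB motif was in 12.3% of them, below the 13.4% of all genes called higher. CHR was in 18.1%, above the 17.1% of genes called lower. The part of base composition in the motif shares was not tested.

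**Figure D5:**
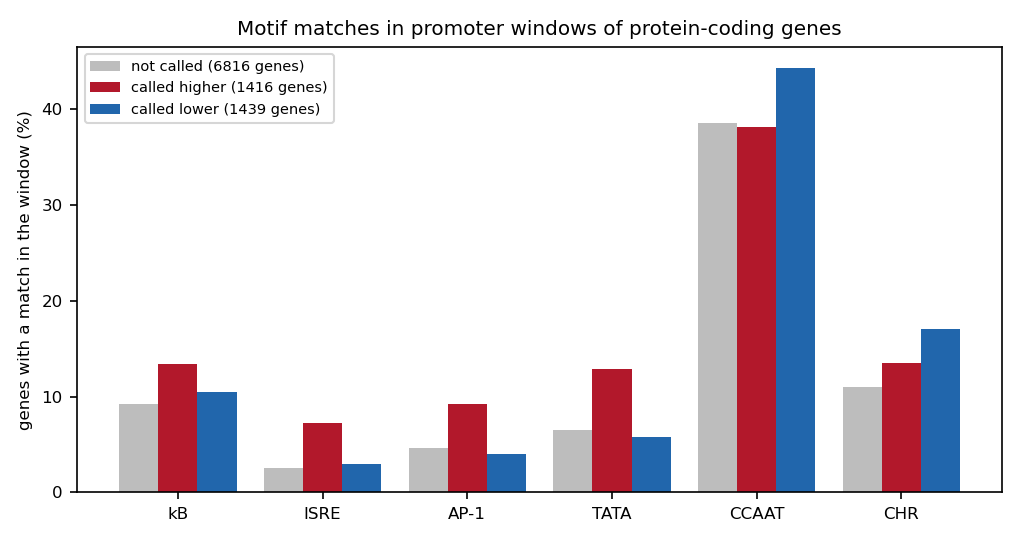
Share of protein-coding genes with at least 1 match of each motif in the promoter window, for genes not called (grey), called higher (red) and called lower (blue). The κB, response element, AP-1 and TATA shares are highest in genes called higher, and the CCAAT and CHR shares are highest in genes called lower.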

How the data were processed

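Poly(A)-selected, stranded libraries were made by the authors from 500 ng of total RNA and sequenced in 1 lane. The authors deposited raw counts per mouse Ensembl gene without normalization. The submitters' processing notes name mm10, Trimmomatic, FastQC, STAR and DESeq2 without versions. The counting tool, its use of strand and the annotation release are not given in the sources used here, so reads of a gene and its antisense partner cannot be told apart.

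Symbols and positions came from GENCODE M21 (GRCm38, the build of mm10), which held 42548 of 43432 identifiers, and the 884 others held 0.0948% of the counts. Low counts were removed with filterByExpr (minimum 10), and the rest were scaled by TMM and fitted in edgeR 4.0.16 (R 4.3.3) with 1 mean for each of 5 groups over 10 libraries, which left 5 residual degrees of freedom, a common biological coefficient of variation of 0.128 and prior degrees of freedom of 2.76. DMSO + LPS was compared with DMSO by the quasi-likelihood F test. SE is the log2 fold change divided by the square root of F. CPM refers to TMM-scaled totals, and levels per length use merged exons. Replicates are labeled as biological, but nothing tells whether they came from separate passages, so p-values may measure technical spread alone. They were not copies of 1 library, since counts of the pairs differed beyond sampling noise (chi-square per gene 53.8 and 8.06). Intervals of ratios are exact at 95% and cover counting error only.

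The genes named are, among those called with a mean of at least 5 CPM whose groups did not overlap, the 15 highest and 15 lowest log2 fold changes, the 5 largest gains and losses in CPM and, of those with at most 3 counts in DMSO, the 5 highest with LPS, then 19 genes by name and members of 27 lists of 621 symbols written from general knowledge, of which 620 were found (Gbp5 was not) and 598 tested. The comparison and the lists were chosen with earlier results of these data known. Promoters are those of RefSeq, GRCm38.p6, the first window listed for each gene, and motif shares were limited to protein-coding genes after the coverage was seen. Some genes of the lists are counted but not reported here by name.

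Alternatives were DESeq2's size factors, library totals, no count filter, only genes that averaged 5 CPM or more, a replicate block, DESeq2 1.42.0 on 10 or 4 libraries, edgeR on 4 libraries, a 2-fold cutoff and leaving out each library, where a group's single library was taken to vary as the rest do. A crossed pairing and a short-transcript score were added after seeing the data.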

Additional observations from a re-analysis of the deposited data

How the results depend on the processing

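The count of genes called was between 3570 and 3850 when 1 of the 4 libraries was left out (3995 with all), with 1866 to 1975 higher and 1686 to 1875 lower, and 3099 of the 3995 genes were called in the same direction in all 4 of these fits. At a 2-fold cutoff 2426 genes were called, of which 1387 were higher and 1039 lower. With a mean of at least 5 CPM 1296 genes were called higher, and with library totals 2938 were called lower. The replicate number as a block gave 4097 calls, 2142 higher and 1955 lower. Same-numbered libraries of the groups compared deviated in opposite directions (correlation −0.38 over 9562 genes). The 3 pairs of DMSO + LPS with a compound group gave −0.17 to −0.42, and the 6 pairs among DMSO and the compound groups gave 0.30 to 0.83. The numbers were therefore not taken to pair the libraries compared, and the crossed pairing on 4 libraries gave 4056 calls, 2130 higher and 1926 lower. The short-transcript score, the median deviation of genes under 1000 exon bases, gave 4483 calls. The other alternatives changed the counts by less than 1.5-fold. No alternative reversed the direction of a called gene among the named genes and list members that it covered. It covered 617 genes, except 555 with a mean of at least 5 CPM and 612 with edgeR or the crossed pairing on 4 libraries. Of these 617 genes, between 6 and 15 lost their call and between 4 and 10 gained one when a library was left out, and with library totals 34 lost and 31 gained it. At a 2-fold cutoff 82 of them lost it by construction. Calls lost without at least 1 library included those of Bcl2a1b, C5ar1, Ccnd2, Cdkn1a, Cdt1, Cebpa, Cx3cl1, Hif1a, Hp, Idh2, Ier5, Ifngr2, Irf4, Klf6, Lyz2, Mmp2, Pparg, Rfc3, Slc39a14 and Tlr13. Among promoter shares, those of the response element, AP-1 and TATA in genes called higher became 9.79, 12.0 and 16% at a 2-fold cutoff, and those of CCAAT and CHR in genes called lower became 47.6 and 20.1%. With 5 residual degrees of freedom over 5 groups of 2, differences near the 1.5-fold threshold are the least certain.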

Other observations

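Some genes called higher lay next to each other, which was looked for after the calls were seen. Counting along each chromosome or scaffold in the order of the 14172 genes tested, 18 runs of at least 5 neighbors were all called higher, and they held 109 of the 2072 genes called higher, while 14.6% of all genes tested were called higher. The longest run had 13 genes on chromosome 1, from 173630917 to 174044411, and contains the Ifi200 family of DNA-binding interferon-induced proteins, among them Ifi204, Ifi205, Ifi207 and Ifi209. The next had 9 genes on chromosome 11, from 83511736 to 83711348, and contains Ccl5, Ccl9, Ccl6, Ccl3 and Ccl4. Runs of 6 genes held Ifit genes on chromosome 19, Slfn genes on chromosome 11 and Trim30 genes on chromosome 7. Reads may be divided between near-identical copies of a family, and the part of such reads in these runs was not tested.

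Shares called are also given by gene class, without a test, beside 14.6% higher and 13.6% lower over all genes tested. Of 316 lincRNA genes tested, 65 (20.6%) were called higher and 32 (10.1%) lower. Of 341 antisense genes, 58 (17.0%) were called higher and 18 (5.28%) lower. Among 12058 protein-coding genes, 1786 (14.8%) were called higher and 1801 (14.9%) lower. Of 715 processed pseudogenes, 51 (7.13%) were called higher and 17 (2.38%) lower. Il1bos, annotated antisense to Il1b, had 1 and 2 counts in DMSO and 135 and 98 in DMSO + LPS. Il1b itself had 87546 and 72366 counts in DMSO + LPS, and the use of strand in the counting is not given. The part of Il1b reads in the counts of Il1bos was not tested.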
